A study of Mus musculus with 7 samples.

Results

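The genes described here are the 100 genes whose level was highest in β-cells of db/db mice relative to lean db/+ mice and that were low again in β-cells of db/db mice lacking Aldh1a3 (Aldh1a3 KO_db/db). They were selected on the values of all 7 libraries: a mean of at least 10 CPM (counts of the gene per 1000000 counts of the library) in db/db, both db/db libraries above every KO_db/db and db/+ library, and a KO_db/db mean of at most 0.33 of the db/db mean. Of 35013 gene symbols in the table, 8339 had a db/db mean of at least 10 CPM, 165 named genes met every condition, and the 100 with the largest log2((db/db mean + 1)/(db/+ mean + 1)) were taken. The differences of db/db from both other groups are therefore a description of the choice and carry no test. The working name of the set calls its genes normalised by the knockout, and the data went partly against that name: in most of them the KO_db/db level stayed above the db/+ level, so they are called here genes raised in db/db and low in KO_db/db. The choice itself favours that order, as set out below.

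The study asked what the loss of Aldh1a3 from β-cells changes in diabetic mice. Poly-A RNA of sorted β-cells was sequenced from 2 KO_db/db, 2 db/db and 3 db/+ mice, with 1 library per mouse, so that p-values measure the spread between these mice. KO_db/db mice were homozygous for Lepr db/db and for the floxed allele (Aldh1a3 fl/fl), and carried RIP-Cre Herr and tdT fl/+. Their db/db controls were Aldh1a3 fl/+ and the lean controls were Aldh1a3 fl/+ and Lepr db/+, so all 3 groups carried the Cre driven by the rat insulin promoter and the tdTomato reporter, and both control groups carried 1 floxed Aldh1a3 allele. The mice were adults, fasted before the islets were isolated. The methods of the study give a general age range for its experiments, in adult mice of both sexes. The age and sex of the animals behind each library, and the gate by which these cells were sorted, are not given in the sources used here.

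Mice homozygous for the db allele lack the signalling form of the leptin receptor, overeat, and become obese and diabetic. In diabetic mice, failing β-cells lose insulin and other markers of the mature cell and gain transcripts of progenitor or neighbouring endocrine cells, a change known as dedifferentiation. Aldh1a3, which oxidises retinaldehyde to retinoic acid, is a known marker of these cells. High glucose is known to induce Txnip and Arrdc4 through the factors ChREBP and MondoA, and excitation and stress of β-cells are known to induce immediate early and heat shock genes.

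Total counts ran from 27496645 to 35852785 per library, and 3 counts corresponded to between 0.0837 and 0.109 CPM. Ins1 and Ins2 together took 21.8% to 24.4% of the counts in the 4 diabetic libraries and 32.2% to 36.1% in db/+. A list of 42 acinar cell genes took 15.0% and 1.66% of the counts in KO_db/db mice 1 and 2, against 0.00708% to 0.0554% in the other libraries, which lowers every other CPM value of KO_db/db mouse 1. Y-linked genes had 2911 counts in db/+ mouse 3 and 20 to 79 in the other libraries. Over the genes tested, the median log2 ratio of these CPM values was 0.49 in db/db over db/+, -0.27 in KO_db/db over db/db and 0.21 in KO_db/db over db/+, so differences below are to be read relative to those shifts. When the libraries were scaled by TMM (the trimmed mean method of edgeR), 104 genes met the rule and 75 of the 100 were among them. When KO_db/db mouse 2 was left out, 290 genes met it and 96 of the 100 were among them. Without KO_db/db mouse 1 these numbers were 123 and 80. They were 134 and 71 without db/db mouse 1, and 239 and 90 without db/db mouse 2. With the acinar list removed from the counts, 138 genes met the rule and 89 of the 100 were among them.

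The 100 genes lay on 20 chromosomes, with 11 on chromosome 12, and 98 of the 99 with an annotation in GENCODE of GRCm38 were protein-coding. At the limits of the rule, Hsd17b7, an enzyme of cholesterol synthesis and the gene at rank 100, had means of 32.1 CPM in db/db, 10.2 CPM in KO_db/db and 4.53 CPM in db/+, while Gprin3, the first gene outside, had 42.0, 8.12 and 6.25 CPM. Map3k20, a stress-activated kinase, was the last inside the KO_db/db limit with a ratio of 0.3296 (22.3 CPM in db/db and 7.35 CPM in KO_db/db), and Tro was the first outside with 0.3351 (11.8 and 3.94 CPM). Radx had the lowest db/db mean inside, 10.1 CPM, and Tesc fell just outside with 9.95 CPM.

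The KO_db/db mean was a median of 18.1% of the db/db mean, from 0.0711% for Slc5a10 to 32.96% for Map3k20. It was at most 10% in 26 genes, between 10% and 20% in 32, and above 20% in 42. The db/db mean was a median of 20.9 times the db/+ mean over 99 genes, and 21.2 times over all 100 when Rps3a3, listed at 0 in every db/+ library, was set to 3 counts over the db/+ group. The rise over db/+ was smaller in KO_db/db by a median of 86.8%, and yet the KO_db/db mean remained a median of 3.14 times the db/+ mean. In these bulk libraries, fewer cells expressing a gene and less of its RNA per cell cannot be told apart.

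**Figure D1:**
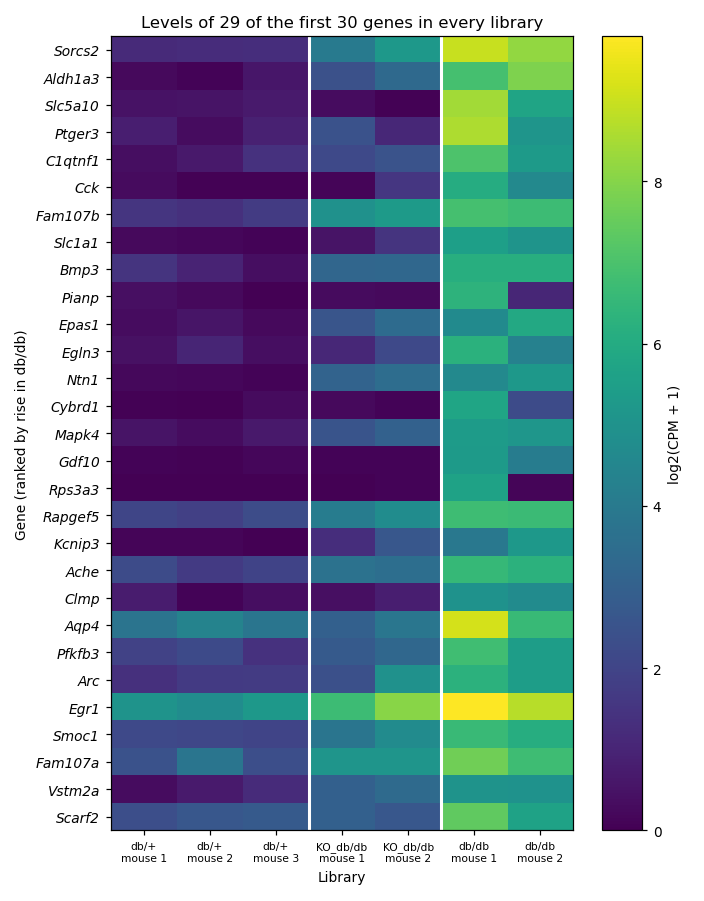
Levels of 29 of the 30 genes with the largest rise, as log2(CPM + 1) by colour, with 1 row per gene in order of its rise and 1 column per library (3 db/+, 2 KO_db/db and 2 db/db mice). The db/db columns are brightest, as the rule requires; Pianp, Cybrd1 and Rps3a3 are bright in db/db mouse 1 and dark in db/db mouse 2, and Ntn1, Epas1, Fam107b and Mapk4 stay above db/+ in both KO_db/db columns.

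The contrast of KO_db/db with db/+ was not a condition of the rule, but it was not independent of it. The ranking favoured genes of low db/+ mean and the limit on KO_db/db left room up to 0.33 of the db/db mean, so the choice itself pushes members towards KO_db/db above db/+. The counts over the set are therefore a description, nothing is read from their distance to the shares of all genes, and the p-values of single members below carry the same limit. Both KO_db/db libraries lay above all 3 db/+ libraries in 77 of the 100 genes, against 38.1% of the genes tested, and both lay below in 1 gene, Slc5a10, against 15.4%. The groups overlapped in the other 22 genes. By the quasi-likelihood test of edgeR, adjusted by Benjamini-Hochberg over 13228 genes, 93 of the 100 were tested, 59 were higher in KO_db/db and 1 was lower, while 20.5% of all genes tested were higher and 17.9% were lower. The remaining 33 did not pass. The median log2 fold change of the 93 was 1.47, against -0.00344 over all genes tested, and the KO_db/db mean was over 2 times the db/+ mean in 74 of the 100. Scaling by the summed count in place of TMM changed the split of all genes from 2712 higher and 2369 lower to 2971 higher and 650 lower, and called 68 of the set higher.

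**Figure D2:**
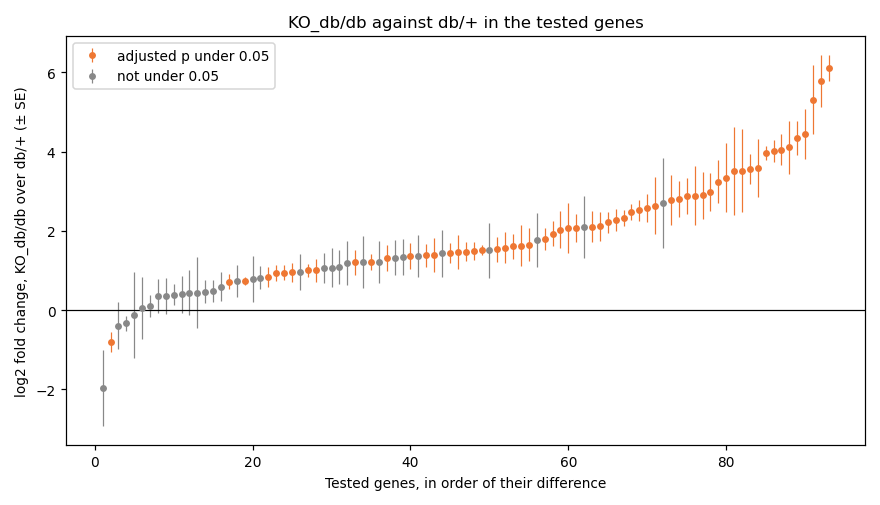
Log2 fold change of KO_db/db over db/+ with its standard error for the 93 genes tested, in order of the difference (horizontal axis), fitted on 2 KO_db/db and 3 db/+ libraries. Orange points passed an edgeR adjusted p of 0.05 (59 higher, 1 lower) and grey points (33) did not; the median lies at 1.47, and the choice of the members favours values above 0.

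The other comparisons served only for genes outside the set. In db/db against db/+, 19.9% of the 13406 genes tested were higher and 18.0% were lower, and the median log2 fold change was 0.00642. The contrast of KO_db/db with db/db gave 0.126% of 13486 genes higher and 0.193% lower, a comparison of 2 mice with 2 in which few genes passed in either direction with edgeR, while DESeq2 called 741 higher and 630 lower. Both contrasts chose the set, so nothing is read from its members in them. For gene lists, counts at an unadjusted edgeR p under 0.05 and in DESeq2 are given below for KO_db/db against db/db. The share of all genes at that unadjusted p is not given here. These counts are therefore a description, and no excess over all genes is read from them.

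Aldh1a3, the gene deleted in the knockout (chr7:66390890-66427517 of GRCm38), ranked 2 of 100. In db/db, Aldh1a3 reached 118 and 238 CPM, compared to 4.40 and 9.06 CPM in KO_db/db and 0.178, 0.0638 and 0.514 CPM in db/+. The KO_db/db libraries were below both db/db libraries and above all db/+ libraries. In counts these were 121 and 325 in KO_db/db, 3353 and 8106 in db/db, and 5, 2 and 17 in db/+. Counts per gene do not show which exons the reads came from. The difference of KO_db/db from db/+ was larger than the spread between mice (log2 fold change 4.44, SE 0.64, edgeR adjusted p = 0.00327). Aldh1a3 had a log2 fold change of 5.53 without db/+ mouse 3. Dhrs3, which reduces retinaldehyde to retinol and is known to be induced by retinoic acid, was the other retinoid enzyme of the set. The level of Dhrs3 was 20.2 and 4.06 CPM in db/db, 2.80 and 1.23 CPM in KO_db/db and 0.356, 0.159 and 0.0302 CPM in db/+. db/db mouse 1 stood out, and both KO_db/db libraries lay above db/+ (log2 fold change 3.34, SE 0.87, edgeR adjusted p = 0.0238). For Dhrs3 the call was lost without KO_db/db mouse 1 or db/+ mouse 2 (edgeR adjusted p = 0.0748 to 0.173). Dhrs3 had a log2 fold change of 2.36 without KO_db/db mouse 1 and 4.24 without db/+ mouse 1.

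The 33 other genes of a retinoid pathway list were not in the set. Of 17 tested in db/db against db/+, those that were higher included Fabp5, Rxra and Hic1, and Adh1 and Rbp4 were lower, all named after their values were seen. The log2 fold change was 2.93 for Fabp5, 1.35 for the receptor Rxra, 2.93 for Hic1, -0.60 for Adh1 and -2.78 for Rbp4. Rbp4 also stands on the list of delta cell markers, whose sums are given below. The median over the 17 was 0.12. In this list, 4 of 18 passed as higher and 1 as lower in KO_db/db over db/+, and 0 of 18 passed in KO_db/db against db/db with edgeR, where 5 had an unadjusted p under 0.05 (2 higher, 3 lower) and DESeq2 called 2. The receptor gene Rarb was at 0 in every library. The promoters of the set were searched for letters that retinoic acid receptors are known to bind. Their binding unit AGGTCA, on either strand, stood in 11 of the 76 promoters matched in RefSeq (14.5%, against 18.1% of 27025 genes, from 250 bases before to 50 after the start), and direct repeats of it 1, 2 or 5 bases apart stood in 0 of 76, against 0.0481%, 0.00740% and 0.0111% of all genes. Aldh1a3 itself had no promoter in that table. The count of 0 says only that these letters are not in these windows.

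Sorcs2, a sorting receptor of the VPS10 family and a coreceptor for neurotrophins (chr5:36017180-36398139 of GRCm38), had the largest rise of the set. Sorcs2 had 504 and 294 CPM in the db/db mice, 15.5 and 36.8 CPM in the KO_db/db mice and 1.24, 1.37 and 1.42 CPM in the db/+ mice. Every KO_db/db library lay far below db/db and well above db/+, and the KO_db/db mean was 19.4 times the db/+ mean (log2 fold change 4.01, SE 0.28, edgeR adjusted p = 0.000636). Other genes of the neuronal surface shared that order. Ntn1 stood at 23.1 and 36.02 CPM in db/db, 7.75 and 10.2 CPM in KO_db/db and 0.142, 0.128 and 0.0605 CPM in db/+. Ntn1 encodes netrin-1, a guidance cue for axons, and had the largest difference from db/+ of the 93 genes (log2 fold change 6.10, SE 0.34, edgeR adjusted p = 0.000605), with a KO_db/db mean 30.3% of that of db/db. The db/+ libraries had 4, 4 and 2 counts of Ntn1, near the floor, so the size of that fold is uncertain. In db/db, Dscam reached 14.1 and 23.97 CPM, compared to 3.49 and 6.81 CPM in KO_db/db and 0.178, 0.351 and 0.242 CPM in db/+. Dscam is a cell adhesion molecule of the immunoglobulin family (log2 fold change 4.05, SE 0.40, edgeR adjusted p = 0.00108). The level of Astn1 was 35.2 and 43.8 CPM in db/db, 7.75 and 9.48 CPM in KO_db/db and 3.52, 2.62 and 2.12 CPM in db/+. Astn1, which serves the migration of neurons along glia, differed less from db/+ (log2 fold change 1.44, SE 0.25, edgeR adjusted p = 0.00593).

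Gfra1 had 69.9 and 45.9 CPM in the db/db mice, 10.7 and 8.37 CPM in the KO_db/db mice and 4.30, 1.98 and 2.21 CPM in the db/+ mice. Gfra1 is the receptor for the neurotrophic factor GDNF, and both KO_db/db libraries exceeded db/+ (log2 fold change 1.58, SE 0.39, edgeR adjusted p = 0.0193). For Gfra1 the call was lost without KO_db/db mouse 1, db/+ mouse 2 or db/+ mouse 3 (edgeR adjusted p = 0.0505 to 0.119). Ache stood at 93.4 and 77.99 CPM in db/db, 12.1 and 10.7 CPM in KO_db/db and 3.66, 2.14 and 2.96 CPM in db/+. Ache, acetylcholinesterase, was alike in the mice of each diabetic group and higher in KO_db/db than in db/+ (log2 fold change 1.78, SE 0.28, edgeR adjusted p = 0.00431). In db/db, Vstm2a reached 32.03 and 30.7 CPM, compared to 7.02 and 9.54 CPM in KO_db/db and 0.249, 0.638 and 1.33 CPM in db/+. Vstm2a, a secreted protein of the immunoglobulin family, was also higher in KO_db/db than in db/+ (log2 fold change 3.24, SE 0.53, edgeR adjusted p = 0.00518). Vstm2a had a log2 fold change of 3.98 without db/+ mouse 3.

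Some surface genes were near or within the db/+ range in KO_db/db. The level of Clmp was 31.2 and 25.1 CPM in db/db, 0.327 and 0.753 CPM in KO_db/db and 0.676, 0.0638 and 0.272 CPM in db/+. Clmp, an adhesion molecule of tight junctions, did not pass the test against db/+ (log2 fold change 0.44, SE 0.89, edgeR adjusted p = 0.723), and its groups overlapped. Clmp had a log2 fold change of 1.41 without db/+ mouse 1. Scarf2 had 169 and 49.1 CPM in the db/db mice, 6.98 and 5.30 CPM in the KO_db/db mice and 4.12, 5.29 and 5.78 CPM in the db/+ mice. Scarf2, a scavenger receptor family member, was 5.63% of the db/db mean in KO_db/db and its KO_db/db libraries overlapped db/+ (log2 fold change 0.10, SE 0.28, edgeR adjusted p = 0.796). Pianp stood at 78.7 and 1.06 CPM in db/db, 0.218 and 0.195 CPM in KO_db/db and 0.320, 0.191 and 0 CPM in db/+. Pianp, a neuronal transmembrane protein, was high in db/db mouse 1 alone and too low elsewhere to be tested. Of 32 other genes of an axon guidance and adhesion list, 12 of 26 tested were higher and 4 lower in db/db than in db/+ (median log2 fold change 0.61), 13 of 24 were higher and 1 lower in KO_db/db than in db/+, and 0 of 25 passed in KO_db/db against db/db with edgeR, where 14 had an unadjusted p under 0.05 (9 higher, 5 lower) and DESeq2 called 9.

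**Figure D3:**
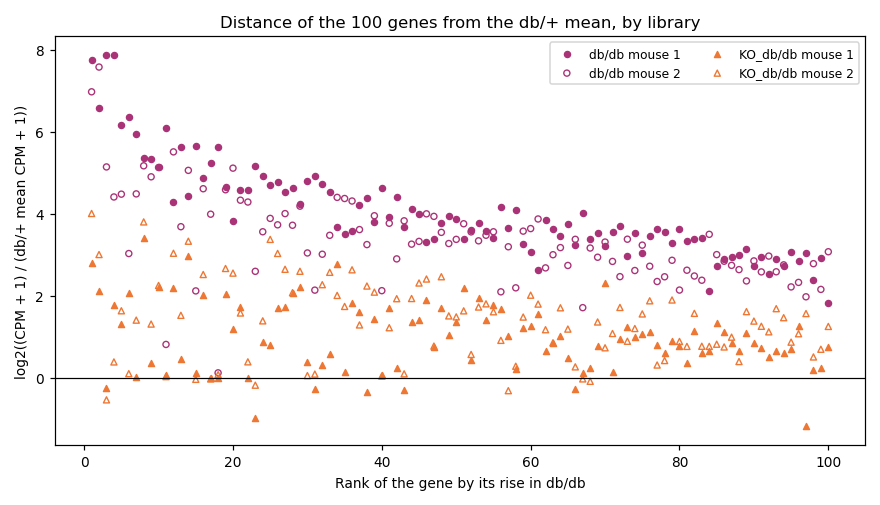
Level of each of the 100 genes relative to the db/+ mean, as log2((CPM + 1)/(db/+ mean CPM + 1)), against the rank of the gene, for the 2 db/db libraries (purple circles) and the 2 KO_db/db libraries (orange triangles); filled symbols are mouse 1 and open symbols mouse 2. db/db points lie above KO_db/db points by the rule, most KO_db/db points lie above the line at 0, and in 16 genes db/db mouse 1 exceeds mouse 2 by over 3 times.

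Transforming growth factor β and bone morphogenetic protein (BMP) genes made up 5 members: ligands, a decoy receptor and extracellular modulators. In db/db, Bmp3 reached 70.02 and 69.05 CPM, compared to 8.33 and 8.53 CPM in KO_db/db and 1.74, 0.989 and 0.272 CPM in db/+. The ligand Bmp3 was nearly equal in the mice of each diabetic group, and higher in KO_db/db than in db/+ (log2 fold change 2.89, SE 0.59, edgeR adjusted p = 0.0103). For Bmp3 the call was lost without KO_db/db mouse 1 (edgeR adjusted p = 0.0509). Bmp3 had a log2 fold change of 3.55 without db/+ mouse 1. The level of Gdf10 was 39.3 and 16.1 CPM in db/db, 0.0727 and 0.0558 CPM in KO_db/db and 0.0711, 0.0319 and 0.121 CPM in db/+. Gdf10, the ligand closest to Bmp3, had 1115 and 547 counts in db/db, 2 in each KO_db/db library, and 2, 1 and 4 in db/+, so that no fold between KO_db/db and db/+ is given.

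Bambi had 266 and 354 CPM in the db/db mice, 79.4 and 62.3 CPM in the KO_db/db mice and 35.1, 30.6 and 33.5 CPM in the db/+ mice. Bambi, a decoy receptor for these ligands, kept a KO_db/db level above db/+ (log2 fold change 0.93, SE 0.20, edgeR adjusted p = 0.0131). Smoc1 stood at 97.3 and 67.1 CPM in db/db, 13.1 and 25.6 CPM in KO_db/db and 3.41, 3.28 and 3.02 CPM in db/+. Smoc1, a matrix protein that antagonises BMP signalling, did so by a larger margin (log2 fold change 2.33, SE 0.21, edgeR adjusted p = 0.000844). In db/db, Thbs1 reached 27.4 and 6.65 CPM, compared to 0.946 and 1.03 CPM in KO_db/db and 0.640, 0.734 and 0.635 CPM in db/+. Thbs1, thrombospondin 1, an activator of latent transforming growth factor β, was highest in db/db mouse 1 and did not differ from db/+ beyond the spread in KO_db/db (log2 fold change 0.36, SE 0.43, edgeR adjusted p = 0.544). Of 30 other genes of the pathway, 4 of 16 tested were higher and 2 lower in db/db than in db/+ (median log2 fold change 0.37), 3 of 15 passed as higher and 1 as lower in KO_db/db over db/+, and 0 of 20 passed in KO_db/db against db/db with edgeR, where 7 had an unadjusted p under 0.05 (3 higher, 4 lower) and DESeq2 called 4.

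Peptides and plasma proteins included a gut hormone, a neuropeptide and transport proteins. The level of Cck was 66.1 and 23.5 CPM in db/db, 0.109 and 1.90 CPM in KO_db/db and 0.213, 0.0319 and 0.0302 CPM in db/+. Cck encodes the gut hormone cholecystokinin, and was not tested against db/+ because of its low counts. Cartpt had 21.1 and 39.4 CPM in the db/db mice, 1.16 and 5.52 CPM in the KO_db/db mice and 1.60, 0.829 and 0.423 CPM in the db/+ mice. Cartpt encodes the neuropeptide CART, and its KO_db/db libraries overlapped db/+ (log2 fold change 1.52, SE 0.69, edgeR adjusted p = 0.129). Cartpt had a log2 fold change of 0.27 without KO_db/db mouse 2, 2.11 without db/+ mouse 1 and 2.15 without KO_db/db mouse 1. Serpina7 stood at 293 and 262 CPM in db/db, 61.2 and 43.9 CPM in KO_db/db and 13.7, 15.7 and 25.4 CPM in db/+. Serpina7, thyroxine-binding globulin, was higher in KO_db/db than in db/+ (log2 fold change 1.36, SE 0.33, edgeR adjusted p = 0.0179). For Serpina7 the call was lost without KO_db/db mouse 1, db/+ mouse 1 or db/+ mouse 2 (edgeR adjusted p = 0.0527 to 0.106).

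In db/db, Gc reached 811 and 907 CPM, compared to 263 and 234 CPM in KO_db/db and 53.9, 62.5 and 111 CPM in db/+. Gc, the vitamin D-binding protein and a marker of alpha cells, was similar in the mice of each diabetic group, and its KO_db/db level stood between the others (log2 fold change 1.53, SE 0.32, edgeR adjusted p = 0.0112). For Gc the call was lost without KO_db/db mouse 1 (edgeR adjusted p = 0.0638). The level of Slc38a5 was 34.3 and 25.02 CPM in db/db, 8.95 and 7.50 CPM in KO_db/db and 1.81, 1.47 and 1.42 CPM in db/+. Slc38a5, an amino acid transporter also known from alpha cells, followed the same order (log2 fold change 2.21, SE 0.27, edgeR adjusted p = 0.00188). The 9 other alpha cell markers summed to 3156 and 2716 CPM in db/db, 1737 and 1564 CPM in KO_db/db and 1607, 1695 and 1170.2 CPM in db/+. Within that sum, Gcg, which defines the alpha cell, stood at 724 and 429 CPM in db/db, 909 and 711 CPM in KO_db/db and 944, 1033 and 333 CPM in db/+, with the 3 groups overlapping. The transthyretin gene Ttr stood at 2292 and 2113 CPM in db/db, 546 and 631 CPM in KO_db/db and 451, 440.4 and 593 CPM in db/+. Loxl4 was at 0. The part of alpha cells in these results was not tested.

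Etv1 had 143 and 110.3 CPM in the db/db mice, 29.5 and 43.4 CPM in the KO_db/db mice and 22.9, 11.7 and 18.03 CPM in the db/+ mice. Etv1, a transcription factor on the list of PP cell markers, was higher in KO_db/db than in db/+ by a small margin (log2 fold change 0.83, SE 0.25, edgeR adjusted p = 0.0412). For Etv1 the call was lost without KO_db/db mouse 1, KO_db/db mouse 2 or db/+ mouse 3 (edgeR adjusted p = 0.0817 to 0.156). The 3 other PP cell markers summed to 732 and 427 CPM in db/db, 806 and 778 CPM in KO_db/db and 487, 283 and 132 CPM in db/+, so KO_db/db was not below db/db in that sum. Macrophage markers (13 genes) summed to 91.00 and 69.7 CPM in db/db, 20.04 and 39.4 CPM in KO_db/db and 49.9, 28.9 and 44.3 CPM in db/+, with Adgre1 at most 0.213 CPM in any library. The acinar sums above moved the other way, with KO_db/db highest. Endothelial markers (12 genes) summed to at most 46.9 CPM, stellate cell and fibroblast markers (13 genes) to at most 7.73 CPM, and lymphocyte markers (9 genes) to at most 0.941 CPM in any library. The 8 delta cell markers summed to 482 and 473 CPM in db/db, 889.7 and 1000.3 CPM in KO_db/db and 2324, 976 and 659 CPM in db/+, where 3 of 6 tested were lower and 1 higher in db/db than in db/+ and 0 of 6 passed in KO_db/db against db/db with edgeR (5 at an unadjusted p under 0.05 and 3 in DESeq2). Schwann cell markers (7 genes) summed to at most 9.37 CPM, with Sox10 and Cdh19 at 0 in every library. The 11 ductal markers summed to 622 and 830.0 CPM in db/db, 476 and 719 CPM in KO_db/db and 331, 326 and 324 CPM in db/+. The part of these cells in the results was not tested.

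Other secreted proteins followed. C1qtnf1 stood at 131 and 39.6 CPM in db/db, 3.49 and 4.66 CPM in KO_db/db and 0.284, 0.574 and 1.60 CPM in db/+. C1qtnf1, a secreted relative of adiponectin, was higher in KO_db/db than in db/+ (log2 fold change 2.08, SE 0.63, edgeR adjusted p = 0.0386). For C1qtnf1 the call was lost without KO_db/db mouse 1, KO_db/db mouse 2, db/+ mouse 1 or db/+ mouse 2 and with all 7 libraries in 1 fit (edgeR adjusted p = 0.0532 to 0.113). C1qtnf1 had a log2 fold change of 3.01 without db/+ mouse 3. Of the distinct 31-base stretches of C1qtnf1 transcripts, 20.8% also occur in other genes, so its counts are uncertain. In db/db, Rspo4 reached 344 and 153 CPM, compared to 36.95 and 53.2 CPM in KO_db/db and 24.3, 22.8 and 21.96 CPM in db/+. Rspo4, which amplifies Wnt signalling and was named after its values were seen, was alike among the 3 db/+ mice and higher in both KO_db/db libraries (log2 fold change 0.74, SE 0.10, edgeR adjusted p = 0.00279). The level of Mfge8 was 24.2 and 14.8 CPM in db/db, 3.20 and 6.83 CPM in KO_db/db and 0.853, 0.542 and 0.333 CPM in db/+. Mfge8, a bridging protein for the uptake of dying cells that was likewise named afterwards, shared that order (log2 fold change 2.87, SE 0.45, edgeR adjusted p = 0.00441). Lama5 had 12.9 and 21.8 CPM in the db/db mice, 6.36 and 3.35 CPM in the KO_db/db mice and 0.142, 0.0638 and 0.0302 CPM in the db/+ mice. Lama5, a laminin chain of basement membranes, was 28.0% of the db/db mean in KO_db/db and near the floor in db/+ (log2 fold change 5.78, SE 0.66, edgeR adjusted p = 0.00158). Lama5 had a log2 fold change of 4.99 without KO_db/db mouse 1 and 6.46 without db/+ mouse 1.

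Genes of glucose metabolism and glucose response formed another group. Txnip stood at 2166 and 1571 CPM in db/db, 348 and 137 CPM in KO_db/db and 202, 127 and 183 CPM in db/+. Txnip, a regulator of thioredoxin and of glucose uptake (chr3:96557957-96561883 of GRCm38), had 1 KO_db/db library within the db/+ range and 1 above it (log2 fold change 0.39, SE 0.46, edgeR adjusted p = 0.525). Txnip had a log2 fold change of -0.71 without KO_db/db mouse 1 (edgeR adjusted p = 0.124) and 1.00 without KO_db/db mouse 2 (edgeR adjusted p = 0.0331). In db/db, Arrdc4 reached 125 and 61.8 CPM, compared to 12.1 and 20.4 CPM in KO_db/db and 9.28, 9.06 and 6.84 CPM in db/+. Arrdc4, a relative of Txnip with the same known regulators, was slightly above db/+ in both KO_db/db libraries (log2 fold change 0.72, SE 0.19, edgeR adjusted p = 0.0263). For Arrdc4 the call was lost without KO_db/db mouse 2 or db/+ mouse 2 and with all 7 libraries in 1 fit (edgeR adjusted p = 0.0567 to 0.149). Of the distinct 31-base stretches of Txnip transcripts, 17.4% were also found in other genes, mainly the overlapping Gm15441, and the use of strand in the counting is not stated.

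The level of Pfkfb3 was 109 and 42.2 CPM in db/db, 5.75 and 8.59 CPM in KO_db/db and 2.77, 3.54 and 1.66 CPM in db/+. Pfkfb3, which makes the activator of the glycolytic enzyme phosphofructokinase, was higher in KO_db/db than in db/+ in each library (log2 fold change 1.20, SE 0.32, edgeR adjusted p = 0.0250). For Pfkfb3 the call was lost without KO_db/db mouse 1, KO_db/db mouse 2 or db/+ mouse 1 and with all 7 libraries in 1 fit (edgeR adjusted p = 0.0647 to 0.102). Fbp2 had 19.8 and 10.5 CPM in the db/db mice, 2.11 and 3.60 CPM in the KO_db/db mice and 0.356, 0.223 and 0.0302 CPM in the db/+ mice. Fbp2, a fructose-bisphosphatase named after its values were seen, was also above db/+ in both KO_db/db libraries (log2 fold change 3.58, SE 0.73, edgeR adjusted p = 0.0104). Pdk4 stood at 10.7 and 11.5 CPM in db/db, 5.27 and 1.09 CPM in KO_db/db and 0.0711, 0.606 and 0.0907 CPM in db/+. Pdk4, the kinase that holds back pyruvate dehydrogenase, was likewise named afterwards. Its db/db mice were nearly equal, and KO_db/db mouse 1 lay above mouse 2 (log2 fold change 3.52, SE 1.05, edgeR adjusted p = 0.0378).

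Of 18 other glucose-responsive genes, 10 of 17 tested were higher and 2 lower in db/db than in db/+ (median log2 fold change 1.15), 7 of 17 were higher and 2 lower in KO_db/db than in db/+, and 0 of 17 passed in KO_db/db against db/db with edgeR, where 9 had an unadjusted p under 0.05 (2 higher, 7 lower) and DESeq2 called 7. To show what the glucose-responsive members hold before their starts, 200 bases of RefSeq sequence (GRCm38.p6), read 5′ to 3′ on the strand of the gene and ending just before the start, are given for Arrdc4 (chr7:68749239-68749438, minus strand) and for Pfkfb3 (chr2:11502091-11502290, minus strand). The other Pfkfb3 start matched in RefSeq (chr2:11553930-11554129) had no CACGTG in its 200 bases and is not shown. Capitals mark CACGTG, the E-box on which ChREBP is known to act in pairs.

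Arrdc4: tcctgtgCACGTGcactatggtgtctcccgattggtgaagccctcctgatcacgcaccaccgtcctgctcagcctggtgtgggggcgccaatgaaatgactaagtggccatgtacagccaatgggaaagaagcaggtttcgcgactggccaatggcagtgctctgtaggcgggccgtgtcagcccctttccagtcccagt
Pfkfb3: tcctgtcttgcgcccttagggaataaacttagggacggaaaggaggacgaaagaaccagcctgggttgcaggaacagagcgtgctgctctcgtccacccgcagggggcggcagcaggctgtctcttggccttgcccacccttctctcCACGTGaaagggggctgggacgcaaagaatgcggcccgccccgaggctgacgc

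CACGTG, a palindrome, was searched after the values were seen. It stood in 14 of the 76 matched promoters (18.4%) against 8.09% of the 27025 genes, among them Fbp2, Cck and Slc38a5. All its matches hold the core ACGTG, which stood in 22 of 76 (28.9%) against 21.8% and marks the hypoxia response. A match is a description and not a site of binding. Txnip had a promoter in the table without CACGTG in this window.

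Oxygen sensing was present through Epas1, the hypoxia-inducible factor 2α, and Egln3, a prolyl hydroxylase that marks such factors for decay. In db/db, Epas1 reached 24.5 and 58.4 CPM, compared to 4.98 and 9.71 CPM in KO_db/db and 0.249, 0.478 and 0.181 CPM in db/+. Epas1 was higher in db/db mouse 2 than in mouse 1, and well above db/+ in both KO_db/db libraries (log2 fold change 4.33, SE 0.43, edgeR adjusted p = 0.00107). The level of Egln3 was 75.4 and 18.9 CPM in db/db, 1.13 and 3.46 CPM in KO_db/db and 0.356, 1.02 and 0.272 CPM in db/+. Egln3 was higher in db/db mouse 1, and its difference between KO_db/db and db/+ did not pass (log2 fold change 1.77, SE 0.68, edgeR adjusted p = 0.0798), although both KO_db/db libraries lay above all db/+ libraries. Egln3 had a log2 fold change of 1.01 without KO_db/db mouse 2 (edgeR adjusted p = 0.433) and 2.58 without db/+ mouse 2 (edgeR adjusted p = 0.0360), and it passed in DESeq2, without a filter on low counts and with scaling by the summed count. Of 18 other hypoxia response genes, 2 of 14 tested were higher and 4 lower in db/db than in db/+ (median log2 fold change -0.17), 3 of 15 passed as higher and 3 as lower in KO_db/db over db/+, and 0 of 15 passed in KO_db/db against db/db with edgeR, where 6 had an unadjusted p under 0.05 (4 higher, 2 lower) and DESeq2 called 4.

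Immediate early genes, which are transcribed within minutes of a stimulus without new protein, made up 5 members, and all 5 were higher in db/db mouse 1 than in mouse 2. In KO_db/db they were lower in mouse 1 than in mouse 2, as were 91.5% of all genes of at least 10 CPM in KO_db/db. Egr1 had 884 and 429 CPM in the db/db mice, 104 and 264 CPM in the KO_db/db mice and 31.5, 26.1 and 36.6 CPM in the db/+ mice. The zinc finger factor Egr1 was above db/+ in both KO_db/db libraries (log2 fold change 2.28, SE 0.28, edgeR adjusted p = 0.00197). Fos stood at 929 and 443 CPM in db/db, 48.8 and 333 CPM in KO_db/db and 117, 104 and 115 CPM in db/+. For Fos, KO_db/db mouse 1 was below and mouse 2 above all db/+ libraries (log2 fold change 0.44, SE 0.57, edgeR adjusted p = 0.571). Fos had a log2 fold change of -1.22 without KO_db/db mouse 2 (edgeR adjusted p = 0.00372) and 1.18 without KO_db/db mouse 1 (edgeR adjusted p = 0.00571), so its sign and its call depended on which mouse was kept. Fos forms the factor AP-1 with Jun. In db/db, Fosb reached 369 and 169 CPM, compared to 13.02 and 83.2 CPM in KO_db/db and 17.7, 13.8 and 19.00 CPM in db/+. Fosb, its relative, split in the same way (log2 fold change 1.19, SE 0.56, edgeR adjusted p = 0.136), with a log2 fold change of -0.40 without KO_db/db mouse 2 (edgeR adjusted p = 0.218) and 1.91 without KO_db/db mouse 1 (edgeR adjusted p = 0.00441). It also passed without a filter on low counts and with scaling by the summed count.

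The level of Jun was 465 and 224 CPM in db/db, 29.4 and 119 CPM in KO_db/db and 20.5, 16.4 and 20.7 CPM in db/+. Jun passed the test against db/+ (log2 fold change 1.65, SE 0.42, edgeR adjusted p = 0.0214). For Jun the call was lost without KO_db/db mouse 2, db/+ mouse 1 or db/+ mouse 2 (edgeR adjusted p = 0.0509 to 0.0729). Jun had a log2 fold change of 0.59 without KO_db/db mouse 2 and 2.24 without KO_db/db mouse 1. Arc had 76.6 and 43.3 CPM in the db/db mice, 4.22 and 30.04 CPM in the KO_db/db mice and 1.53, 2.17 and 2.27 CPM in the db/+ mice. Arc, a regulator of synapses that is induced by calcium entry, did as well (log2 fold change 2.77, SE 0.63, edgeR adjusted p = 0.0153). For Arc the call was lost without KO_db/db mouse 2, db/+ mouse 1 or db/+ mouse 2 (edgeR adjusted p = 0.0516 to 0.0690). Arc had a log2 fold change of 1.05 without KO_db/db mouse 2 and 3.52 without KO_db/db mouse 1. Of 18 other immediate early genes, 10 of 15 tested were higher in db/db than in db/+ (median log2 fold change 1.31), 5 of 13 were higher in KO_db/db when compared to db/+, and 0 of 14 passed in KO_db/db against db/db with edgeR, where 3 had an unadjusted p under 0.05 (0 higher, 3 lower) and DESeq2 called 2. Their summed level was 602 and 348 CPM in db/db, 158 and 314 CPM in KO_db/db and 128, 116 and 155 CPM in db/+, with the same order of mice.

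**Figure D4:**
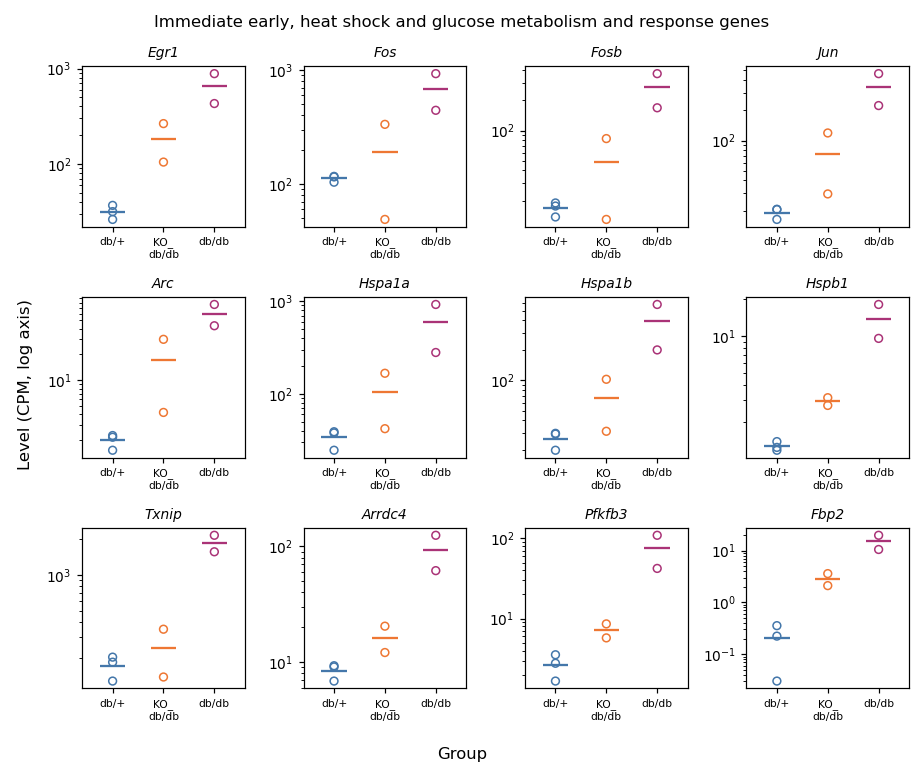
Levels in CPM on a log axis, which differs between panels, of 5 immediate early genes, 3 heat shock genes and 4 genes of glucose metabolism and response in the 3 db/+ (blue), 2 KO_db/db (orange) and 2 db/db (purple) libraries; each circle is a library and each bar the mean of its group. For Fos and Fosb, 1 KO_db/db library lies below and 1 above the db/+ libraries; for Txnip, 1 lies within their range; for the other 9 genes both lie above.

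The heat shock genes were a group formed after the values were seen, except for Hspa1a. All 3 were higher in db/db mouse 1 than in mouse 2. In KO_db/db, Hspa1a and Hspa1b were lower in mouse 1 than in mouse 2, while Hspb1 was nearly equal in both mice. Mouse 2 was the higher in 91.5% of all genes of at least 10 CPM in KO_db/db. Hspa1a stood at 923 and 279 CPM in db/db, 41.9 and 166 CPM in KO_db/db and 38.8, 24.5 and 37.7 CPM in db/+. Hspa1a, an inducible Hsp70 chaperone, was over 3 times higher in db/db mouse 1 than in mouse 2, and its difference between KO_db/db and db/+ lay just outside the threshold (log2 fold change 1.33, SE 0.43, edgeR adjusted p = 0.050003). Hspa1a had a log2 fold change of 0.29 without KO_db/db mouse 2 (edgeR adjusted p = 0.456) and 1.91 without KO_db/db mouse 1 (edgeR adjusted p = 0.00753), and it passed with RLE scaling, without a filter on low counts, without the acinar list and with scaling by the summed count. In db/db, Hspa1b reached 577 and 202 CPM, compared to 31.02 and 103 CPM in KO_db/db and 29.6, 20.03 and 29.1 CPM in db/+. Hspa1b, its neighbour 9952 bases away on chromosome 17, gave nearly the same pattern (log2 fold change 1.06, SE 0.37, edgeR adjusted p = 0.0613). The level of Hspb1 was 18.02 and 9.56 CPM in db/db, 2.73 and 3.15 CPM in KO_db/db and 1.39, 1.24 and 1.18 CPM in db/+. Hspb1, a small heat shock protein, passed the test against db/+ (log2 fold change 1.00, SE 0.29, edgeR adjusted p = 0.0356). The counts of these 3 genes are uncertain, since 70.1% of the 31-base stretches of Hspa1a, 68.1% of those of Hspa1b and 55.4% of those of Hspb1 also occur in other genes or pseudogenes.

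The near identity of the Hsp70 genes extends to the 200 bases before their starts, shown here 5′ to 3′ on the strand of each gene (RefSeq, GRCm38.p6), since it shows that both carry the same heat shock motif. Hspa1a lies at chr17:34972157-34972356 and Hspa1b at chr17:34959239-34959438 (both minus strand), and Hspb1 at chr5:135887719-135887918 (plus strand). Capitals mark GAANNTTC, a pair of inverted units of the heat shock element.

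Hspa1a: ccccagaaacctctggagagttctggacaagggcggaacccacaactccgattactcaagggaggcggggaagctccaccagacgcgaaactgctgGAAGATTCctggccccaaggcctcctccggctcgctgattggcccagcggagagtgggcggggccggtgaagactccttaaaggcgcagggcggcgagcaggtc
Hspa1b: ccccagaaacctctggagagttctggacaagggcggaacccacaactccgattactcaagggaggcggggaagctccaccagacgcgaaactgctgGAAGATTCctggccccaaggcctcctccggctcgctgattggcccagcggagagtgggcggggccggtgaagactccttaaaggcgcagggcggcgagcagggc
Hspb1: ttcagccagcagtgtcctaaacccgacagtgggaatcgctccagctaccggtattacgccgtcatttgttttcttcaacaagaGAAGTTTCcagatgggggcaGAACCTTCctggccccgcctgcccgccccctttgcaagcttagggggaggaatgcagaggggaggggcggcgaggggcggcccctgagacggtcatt

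The windows of Hspa1a and Hspa1b were identical at 199 of 200 positions. GAANNTTC, a palindrome searched after the values were seen, stood in 9 of the 76 matched promoters (11.8%) against 9.04% of all genes, and the 9 included Jun, Cartpt, Fbp2 and Dhrs3. The other motifs searched on both strands were the E-box CAGCTG (12 of 76, 15.8%, against 18.3% of all genes), the TATA box TATAAA (5, 6.58%, against 15.7%), the cAMP response element TGACGTCA (2, 2.63%, against 2.03%) and the AP-1 letters TGAGTCA or TGACTCA (5, 6.58%, against 5.95%).

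Several transporters and channels differed widely between the db/db mice. Slc5a10 had 346 and 51.7 CPM in the db/db mice, 0.255 and 0.0279 CPM in the KO_db/db mice and 0.391, 0.446 and 0.635 CPM in the db/+ mice. Slc5a10, a sodium-coupled transporter of mannose and fructose, had the lowest KO_db/db share of the set. It was in both KO_db/db libraries below all db/+ libraries, but the difference did not pass (log2 fold change -1.97, SE 0.96, edgeR adjusted p = 0.148). Slc5a10 had a log2 fold change of -4.32 without KO_db/db mouse 1 and -0.97 without KO_db/db mouse 2. Of its 31-base stretches, 13.2% are shared with Fam83g, which overlaps it. Aqp4 stood at 578 and 96.04 CPM in db/db, 7.09 and 13.2 CPM in KO_db/db and 12.7, 19.6 and 12.8 CPM in db/+. Aqp4, a water channel, was the 1 member called lower in KO_db/db than in db/+ (log2 fold change -0.81, SE 0.25, edgeR adjusted p = 0.0440). For Aqp4 the call was lost without KO_db/db mouse 1, db/+ mouse 1 or db/+ mouse 2, with all 7 libraries in 1 fit and with scaling by the summed count (edgeR adjusted p = 0.0584 to 0.371).

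In db/db, Slc1a1 reached 44.5 and 32.6 CPM, compared to 0.436 and 1.79 CPM in KO_db/db and 0.178, 0.128 and 0.0605 CPM in db/+. Slc1a1, a glutamate transporter, was similar in the db/db mice and higher in KO_db/db than in db/+ (log2 fold change 2.88, SE 0.75, edgeR adjusted p = 0.0233). For Slc1a1 the call was lost without KO_db/db mouse 2, db/+ mouse 2 or db/+ mouse 3 (edgeR adjusted p = 0.0517 to 0.270). Slc1a1 had a log2 fold change of 1.79 without KO_db/db mouse 2. Of the distinct 31-base stretches of Slc1a1 transcripts, 31.5% also occur in other genes, so its counts are uncertain. The level of Cybrd1 was 53.4 and 3.71 CPM in db/db, 0.182 and 0.0558 CPM in KO_db/db and 0.0356, 0 and 0.212 CPM in db/+. Cybrd1, a ferric reductase, was high in db/db mouse 1 and at or near the floor in KO_db/db and db/+, so it was not tested. Kcnip3 had 14.00 and 35.96 CPM in the db/db mice, 1.45 and 5.27 CPM in the KO_db/db mice and 0.107, 0.0957 and 0 CPM in the db/+ mice. Kcnip3, a calcium sensor that binds potassium channels, was higher in db/db mouse 2 and, in KO_db/db, higher in mouse 2 (log2 fold change 5.31, SE 0.87, edgeR adjusted p = 0.00509). Kcnip3 had a log2 fold change of 4.35 without KO_db/db mouse 2 and 4.72 without db/+ mouse 3. Its db/+ libraries had 3, 3 and 0 counts, so that fitted value depends on the prior count. The ratio of summed counts was 55.8 for the depth (95% exact interval 25.2 to 154, for counting error only). Of 25 other transporters of amino acids and sugars, 4 of 22 tested were higher and 6 lower in db/db than in db/+ (median log2 fold change -0.07), 2 of 20 passed as higher and 6 as lower in KO_db/db over db/+, and 0 of 22 passed in KO_db/db against db/db with edgeR, where 7 had an unadjusted p under 0.05 (4 higher, 3 lower) and DESeq2 called 5.

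Receptors and signalling genes included members that passed the test against db/+ and members that did not. Ptger3 stood at 379 and 33.4 CPM in db/db, 4.58 and 1.12 CPM in KO_db/db and 0.747, 0.255 and 0.847 CPM in db/+. Ptger3, the EP3 receptor for prostaglandin E2, was 11.4 times higher in db/db mouse 1 than in mouse 2. Its KO_db/db libraries lay above all db/+ libraries, but the difference did not pass (log2 fold change 2.10, SE 0.78, edgeR adjusted p = 0.0736). Ptger3 rested on 1 library, with a log2 fold change of 0.46 without KO_db/db mouse 1 (edgeR adjusted p = 0.717) and 2.86 without KO_db/db mouse 2 (edgeR adjusted p = 0.0210). It also passed in DESeq2, without a filter on low counts and with scaling by the summed count. In db/db, Mapk4 reached 40.6 and 33.9 CPM, compared to 4.76 and 7.20 CPM in KO_db/db and 0.427, 0.255 and 0.605 CPM in db/+. Mapk4, an atypical protein kinase, was similar in the db/db mice and higher in KO_db/db than in db/+ (log2 fold change 3.56, SE 0.38, edgeR adjusted p = 0.00133). The level of Rapgef5 was 105 and 100.3 CPM in db/db, 16.5 and 25.8 CPM in KO_db/db and 3.13, 2.65 and 3.87 CPM in db/+. Rapgef5, which activates the small GTPase Rap, showed the same order (log2 fold change 2.48, SE 0.20, edgeR adjusted p = 0.000721).

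Fam107b had 117 and 103 CPM in the db/db mice, 29.7 and 39.4 CPM in the KO_db/db mice and 1.85, 1.56 and 2.27 CPM in the db/+ mice. Fam107b had the largest KO_db/db level relative to db/db among the first 10 genes, 31.3% (log2 fold change 3.97, SE 0.17, edgeR adjusted p = 0.000356). Fam107a stood at 203 and 107 CPM in db/db, 33.7 and 33.6 CPM in KO_db/db and 4.52, 12.98 and 4.11 CPM in db/+. Fam107a, its relative that binds actin, was equal in both KO_db/db mice (log2 fold change 2.03, SE 0.47, edgeR adjusted p = 0.0163). For Fam107a the call was lost without KO_db/db mouse 1 (edgeR adjusted p = 0.0722). Fam107a had a log2 fold change of 2.77 without db/+ mouse 2. In db/db, Map3k20 reached 24.7 and 19.8 CPM, compared to 4.51 and 10.2 CPM in KO_db/db and 1.92, 3.32 and 2.18 CPM in db/+. Map3k20, at the limit of the rule, passed against db/+ (log2 fold change 1.31, SE 0.33, edgeR adjusted p = 0.0223). For Map3k20 the call was lost without KO_db/db mouse 2, db/+ mouse 1 or db/+ mouse 3 (edgeR adjusted p = 0.0559 to 0.146). The level of Hsd17b7 was 18.6 and 45.6 CPM in db/db, 8.26 and 12.2 CPM in KO_db/db and 4.87, 4.88 and 3.84 CPM in db/+. Hsd17b7 was higher in db/db mouse 2 (log2 fold change 0.95, SE 0.18, edgeR adjusted p = 0.00881). For Hsd17b7 the call was lost with all 7 libraries in 1 fit (edgeR adjusted p = 0.0653).

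Rps3a3 had 48.3 and 0.0882 CPM in the db/db mice, 0 and 0.0558 CPM in the KO_db/db mice and 0, 0 and 0 CPM in the db/+ mice. Rps3a3, a processed pseudogene on chromosome 13, rested on db/db mouse 1, with 1370 counts there and 3 in mouse 2, and 78.4% of its 31-base stretches also occur in other genes of the Rps3a family, so its counts are uncertain. Radx stood at 17.5 and 2.71 CPM in db/db, 0.218 and 0.112 CPM in KO_db/db and 0.107, 0.287 and 0 CPM in db/+. Radx, which protects replication forks, was also mainly found in db/db mouse 1. In db/db, Rps13 reached 79.2 and 88.2 CPM, compared to 4.07 and 5.72 CPM in KO_db/db and 5.40, 5.68 and 4.75 CPM in db/+. Rps13, a ribosomal protein gene named after its values were seen, was even in the mice of each group, but 23.0% of its stretches are shared with pseudogenes.

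Grouped by the known role of their products, a grouping made after the values were seen, the members higher in KO_db/db than in db/+ were 12 of 15 tested secreted ligands, modulators and plasma proteins, 8 of 14 receptors and signalling genes, 7 of 11 genes of cytoskeleton and scaffold, 6 of 9 metabolic genes, 5 of 11 channels and transporters, 4 of 7 neural surface genes, 4 of 5 matrix genes, 3 of 4 transcription factors, 3 of 5 immediate early genes, 3 of 3 genes of the endoplasmic reticulum, 2 of 2 retinoid enzymes, 1 of 2 oxygen sensing genes and 1 of 3 heat shock genes, but neither of 2 tested ribosomal and other genes, beside 20.5% of all genes tested. Most of these groups are small, the limit on this contrast given above holds for each, and no difference between groups was tested. The median KO_db/db share of db/db was lowest in the group of neural surface and adhesion genes, 9.93%, apart from groups of up to 4 genes. It was highest among groups of 5 or more in the immediate early genes, 27.9%. The neural surface and adhesion group held Sorcs2, Dscam, Clmp, Astn1, Pianp, Scarf2, Susd2 and Ache. Ntn1 and Gfra1 stood in other groups, so that median depends on how the genes were grouped.

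The db/db mice differed from each other across the set. The rule used the mean of both, so that 1 very high mouse can carry a gene into the set, and large ratios between the mice are in part built into the choice. It treats both mice alike and does not set which of them is higher. The shares below are a description. db/db mouse 1 was higher than mouse 2 in 73 of the 100 genes, against 47.5% of the 8339 genes of at least 10 CPM in db/db. The median ratio of mouse 1 to mouse 2 was 1.45 in the set and 0.986 over all those genes. In 40 members the mice lay within 1.5 times of each other. Mouse 1 was over 3 times higher in 16 members, which is the case for 41 of all those genes (0.492%), while mouse 2 was over 3 times higher in 0 members and in 27 of all those genes. The 16 included Slc5a10, Ptger3, C1qtnf1, Pianp, Egln3, Cybrd1, Rps3a3, Aqp4, Scarf2, Odad4, Hspa1a, Pqlc3, Dhrs3, Thbs1 and Radx. In 12 members the level in db/db mouse 2 was at most 10 CPM. By the rule, mouse 2 also lay above every KO_db/db and db/+ library in these 16, by margins that varied. It had 51.7 CPM of Slc5a10 against at most 0.635 CPM there, but 0.0882 CPM of Rps3a3 against at most 0.0558 CPM. With 2 mice in the group, how much of the rise belongs to mouse 1 and how much to the genotype cannot be told apart for these 16.

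**Figure D5:**
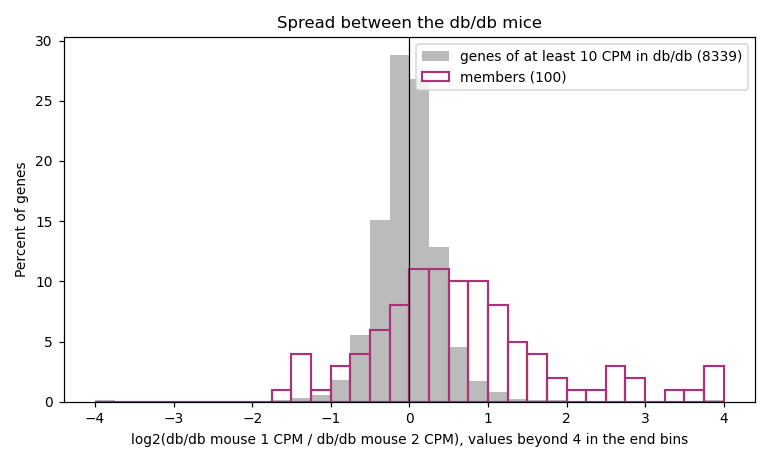
Distribution of the log2 ratio of db/db mouse 1 to db/db mouse 2 (horizontal axis), as the percent of genes in bins of 0.25 (vertical axis), for the 100 members (purple outline) and the 8339 genes of at least 10 CPM in db/db (grey). The members are shifted to the right, with a median ratio of 1.45 against 0.986, and 16 of them exceed 3 times. The rule, which took the mean of both mice, favours genes that are high in 1 of them. It treats both mice alike and does not set which of them is higher.

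The KO_db/db mice differed as well. Mouse 2 was higher in 72 members and mouse 1 in 28, but mouse 2 was also higher in 91.5% of all genes of at least 10 CPM in KO_db/db, whose median ratio of mouse 2 to mouse 1 was 1.29, against 1.44 in the set. Mouse 2 was over 3 times higher in 13 members and mouse 1 in 5.

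Other gene lists known from the β-cell were measured beside the set. Of 15 dedifferentiation and progenitor genes outside it, 8 of 12 tested were higher and 1 lower in db/db than in db/+ (median log2 fold change 1.95), 6 of 13 were higher in KO_db/db when compared to db/+, and 0 of 13 passed in KO_db/db against db/db with edgeR, where 5 had an unadjusted p under 0.05 (2 higher, 3 lower) and DESeq2 called 4. Of 25 genes of β-cell identity, 17 were lower and 1 higher in db/db than in db/+ (median log2 fold change -0.83), 12 were lower and 2 higher in KO_db/db against db/+ (median log2 fold change -0.56), and 3 passed in KO_db/db against db/db, all higher. These were Ucn3, a peptide of mature β-cells, whose log2 fold change was -2.93 for db/db over db/+ and 1.79 for KO_db/db over db/db (edgeR adjusted p = 0.0459), the ion channel Trpm5 with -6.14 and 3.83 (edgeR adjusted p = 0.0404), and the natriuretic peptide receptor Npr1 with -1.97 and 2.02 (edgeR adjusted p = 0.0445). In KO_db/db against db/db, 10 of the 25 had an unadjusted edgeR p under 0.05 and DESeq2 called 7, all higher. Both contrasts share the db/db mice. For Ucn3 the call in KO_db/db against db/db was lost without KO_db/db mouse 1 or db/db mouse 1 (edgeR adjusted p = 0.0593 to 0.0953). For Trpm5 the call in KO_db/db against db/db was lost without db/db mouse 1 (edgeR adjusted p = 0.0791). For Npr1 the call in KO_db/db against db/db was lost without KO_db/db mouse 1 or db/db mouse 1 (edgeR adjusted p = 0.0684 to 0.0914). Over all genes, 0 passed in either direction without db/db mouse 1. Of 23 other peptide genes, 5 of 13 tested were higher and 2 lower in db/db than in db/+ (median log2 fold change 0.71), and 3 of 13 passed as higher and 2 as lower in KO_db/db over db/+. The opioid peptide gene Pdyn, named after its values were seen, was the 1 of 14 tested that was lower in KO_db/db than in db/db (log2 fold change -2.27, edgeR adjusted p = 0.0374). For Pdyn the call in KO_db/db against db/db was lost without db/db mouse 1 and with all 7 libraries in 1 fit (edgeR adjusted p = 0.0503 to 0.0719). It did not differ between db/db and db/+ beyond the spread (log2 fold change 0.20). Endoplasmic reticulum stress genes were higher in 2 and lower in 5 of 25 in db/db against db/+. In the same contrast, proliferation genes were higher in 1 and lower in 4 of 25, and prostaglandin genes higher in 1 of 5 tested. For KO_db/db over db/+, 1 of 25 proliferation genes passed as a rise and 7 as falls (median log2 fold change -0.72). The endoplasmic reticulum stress genes had 3 rises and 5 falls among 25, and the prostaglandin genes 2 rises among 5. With edgeR, 0 genes of these lists passed between KO_db/db and db/db. There 4 proliferation genes had an unadjusted p under 0.05 (3 higher, 1 lower), and DESeq2 called 2, all higher.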

How the data were processed

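Sorted β-cells of 3 db/+, 2 db/db and 2 KO_db/db mice were profiled by RNA-seq, and libraries were grouped by the genotype and mouse that the labels name. Libraries were poly-A selected, prepared with TruSeq chemistry and sequenced as paired ends. The authors deposited estimated counts per gene, as whole numbers without normalization. The submitters' processing notes name bcl2fastq 2.19, kallisto 0.44.0 and GRCm38, and the annotation release is not given in the sources used here. Reads that match more than 1 transcript are shared out by kallisto, which leaves near-identical genes uncertain. The table held 35013 symbols, 14637 of them at 0 throughout, and 0 columns were left unused.

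CPM values were counts divided by the summed count of the library. They are not corrected for gene length, so levels are compared between libraries and not between genes. Members were chosen by the rule given at the start, after leaving out symbols of predicted genes, Riken clones and pseudogenes marked as such. The rule, the members and the gene lists were chosen with earlier results of these data known. Named genes are the 30 members with the largest rise, members that stand in a gene list, Aldh1a3, the 5 members with the largest differences each way in KO_db/db against db/+, the 5 with the highest db/db CPM, and the genes at the limits of the rule. Others are marked in the text as named after their values were seen. The values of 1 member and of 1 gene in a list are not reported here.

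Comparisons were fitted pairwise, without the libraries of the remaining group, in R 4.3.3 with edgeR 4.0.16 (filterByExpr with a minimum count of 10, TMM factors, quasi-likelihood test, Benjamini-Hochberg adjustment over all genes tested, threshold 0.05). Standard errors were obtained by dividing the log2 fold change by the square root of F. The fits were tested on simulated data. Replicates differed by more than sampling noise. Intervals are 95% exact intervals, and a count of 3 was taken as the floor. Alternatives were RLE factors, DESeq2 1.42.0, low counts left in, 1 fit of all 7 libraries, the mouse number as a block, counts without the acinar list, a threshold of 0.01, other limits of the rule, leaving out each library in turn and, chosen after seeing the data, scaling by the summed count. Coordinates are from GENCODE M21 on GRCm38, to which 34222 symbols matched, and promoter sequences are from RefSeq (GRCm38.p6, 76 of the 100 members matched). Shared 31-base stretches were counted against all GENCODE M21 transcripts.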

Additional observations from a re-analysis of the deposited data

How the results depend on the processing

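In KO_db/db against db/+, 44 named members were followed through the alternatives, of which 33 passed the threshold and 11 did not. Rspo4, Mfge8, Fbp2, Pdk4, Hspa1b and Hspb1, brought in after their values were seen, are not among them. Whether their results hold under the alternatives is not given here. Over 429 alternatives of the 33, 364 kept direction and call and 65 lost the call, in 17 members, and 0 turned direction. Over 143 alternatives of the 11, 117 kept direction and side of the threshold, 19 gained the call, in 6 members, and 7 turned direction. The log2 fold changes that turned were those of Clmp without KO_db/db mouse 2 (-0.063) and without db/+ mouse 2 (-0.049), Scarf2 without KO_db/db mouse 1 (-0.33) and without db/+ mouse 1 (-0.023), Txnip without KO_db/db mouse 1 (-0.71), and Fosb (-0.40) and Fos (-1.22) without KO_db/db mouse 2. When a library was left out, the values ran from -0.063 to 1.41 for Clmp, from -0.33 to 0.43 for Scarf2, from -0.71 to 1.00 for Txnip, from -0.40 to 1.91 for Fosb and from -1.22 to 1.18 for Fos. The cause was not tested. Where a fit had 1 KO_db/db library left, that library was assumed to vary like the others.

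Against 165 genes, 104 met the rule under TMM scaling, 87 with a KO_db/db limit of 0.25 and 445 with 0.5, and 123 to 290 when a library was left out. Members called higher in KO_db/db than in db/+ were 34 at a threshold of 0.01, all of them among the 59, and 46 to 55 when a library was left out, of which 41 to 50 were among the 59. Members called lower were 0 with all 7 libraries in 1 fit, with scaling by the summed count and at 0.01, and 0 to 2 when a library was left out. The median log2 fold change of the tested members was 1.71 with scaling by the summed count and 1.25 to 1.59 when a library was left out, lowest without KO_db/db mouse 2.

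Over all genes, KO_db/db against db/+ gave 1482 higher and 912 lower at 0.01, 650 lower with scaling by the summed count, and 1766 to 2600 higher and 1294 to 2125 lower when a library was left out. In db/db against db/+ these were 1385 and 1094 at 0.01, 5971 and 801 with scaling by the summed count, and 1466 to 2116 lower when a library was left out. In KO_db/db against db/db, 17 higher and 26 lower became 741 and 630 in DESeq2, 804 and 766 without a filter, 504 and 314 with all 7 libraries in 1 fit, 337 and 883 with scaling by the summed count, 0 and 0 at 0.01, and 0 to 170 and 0 to 136 when a library was left out.

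The mouse numbers did not pair the samples: deviations of same-numbered mice correlated at -0.06 between db/db and KO_db/db, 0.12 and 0.10 between db/db and db/+, and -0.18 and -0.15 between KO_db/db and db/+. With the replicate block, 53 members were higher and 1 lower, with a median of 1.57. Of the 44 named members counted above, 5 lost and 1 gained the call. Over all genes the block gave 2125 rises and 1661 falls for KO_db/db over db/+, 2409 and 2107 for db/db over db/+, and 9 and 13 for KO_db/db over db/db.

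With 2 mice in each diabetic group, the spread rests on few libraries. Genes under 3 counts in a group have no reliable fold, and the sex of the animals differed in at least 1 library by Y-linked counts.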
